A study of Mus musculus with 6 samples.

Results

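The 10 genes described here encode the TGF-beta ligands Tgfb1, Tgfb2 and Tgfb3, the activin subunit Inhba, the receptors Tgfbr1, Tgfbr2 and Tgfbr3, and the intracellular Smads Smad2, Smad3 and Smad7. They were taken by symbol from the 53647 genes of each library, and each symbol matched 1 gene. Single cell RNA sequencing of proximal pulmonary arteries (PAs) compared 2 young libraries, from C57BL/6J mice of 3 months, with 4 old libraries, 1 each from mice of 20, 24, 27 and 28 months of the same strain. The study describes 1 mouse at each of the old ages, while the labels do not tie libraries to animals. The arteries were taken with surrounding tissue and digested with collagenase and elastase, so lung, airway, lymphoid and pleural cells came with the vessel wall. The titles of the second young library and of the 28-month library begin with f and that of the 27-month library with m, and the mice of the study were of both sexes. The remaining young library was not analysed here. Levels are counts per 1000000 UMIs (CPM): the UMIs of a gene, tags that mark single RNA molecules, over all UMIs of the same cell type in the same library.

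TGF-beta ligands are secreted in a latent complex, and once released they bring together a pair of transmembrane kinases, TGF-beta receptor type 2 (Tgfbr2) and type 1 (Tgfbr1). The type 1 receptor phosphorylates Smad2 and Smad3, which enter the nucleus with Smad4. Smad7 is induced by the same signal and blocks it, and Tgfbr3 (betaglycan) is a co-receptor that presents ligand, above all TGF-beta 2. In arteries the pathway is known for its effects on matrix production by fibroblasts (FBs), on the contractile state of smooth muscle cells (SMCs) and on endothelial cells (ECs).

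The libraries held 6355125 to 50436562 UMIs, and 15311 cells were kept, from 926 to 4017 per library. Young cells were shallow, with median UMIs per library of 816.5 and 841, close to the 24-month library (799) and below the other old libraries (2161 to 8052). Kept cells of these 3 shallow libraries also shared 130 to 212 barcodes per pair, against at most 4 in any other pair, and most of the shared barcodes were airway epithelial cells. FBs, SMCs and ECs expressed their own markers in every library, but at a lower level in the SMCs of 1. The 10 SMCs of the 24-month library held SMC markers at 9316 CPM, against 28405 to 47591 CPM elsewhere, and all 6 alveolar epithelial markers at 28697 CPM, against at most 12.3 CPM elsewhere, so comparisons of SMCs between ages are also given without that library. Cardiomyocyte markers were at 5204 CPM in SMCs of the first young library and 5889 CPM in those of the 24-month library, against 292 to 678 CPM in the other 4. Hemoglobin and other erythroid markers reached 28332 CPM in FBs and 27486 CPM in ECs of the 24-month library and 8673 and 11051 CPM in those of the 28-month library, against 20.98 to 410 CPM in the same types of the other libraries. The part of these markers in the results was not tested. The label of the 20-month library gives no sex and the study describes a male of that age. The library held 2395 Xist UMIs, and of the Y-linked genes 2 UMIs of Eif2s3y, 2 of Kdm5d, 15 of Uty and 205 of Ddx3y, so Xist and Ddx3y point in different directions.

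Cells of one type fell into different clusters by library. The cluster with most young cells held 84 of 92 and 29 of 29 young FBs, 24 of 26 and 32 of 33 young SMCs and 80 of 82 and 60 of 62 young ECs. It also held most of these cells at 20 and 24 months, but only 28 of 493 FBs, 167 of 2343 SMCs and 41 of 294 ECs at 27 months, and 64 of 819, 89 of 957 and 78 of 807 at 28 months. Differences that involve the 27- and 28-month libraries are therefore also differences between clusters, and the part of each was not tested.

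Levels across cell types are given first, as medians over the libraries with at least 10 cells of a type. They are a description without a test, since other genes of the same cells defined the types. Orders of types, and the highest or lowest type, cover types with at least 3 such libraries. Lymphatic ECs, with 2, are left out of them. RNA outside cells gives a measure of background, and it was read from barcodes with 30 to 299 UMIs. Its CPM leave mitochondrial UMIs out of the total, whereas those of cell types include them. Free RNA thus reads higher than it would per all UMIs. A level above its range lies above it per all UMIs too, and one inside or below it may stand higher there.

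The ligands differed in the cells that held them. Tgfb1, the isoform best known from immune cells and platelets, was highest in myeloid cells (median 302 CPM over 3 libraries), perivascular macrophages (MΦs) (219 CPM over 5) and ECs (138 CPM over 6). The 3 myeloid libraries were all old. T or NK cells (127 CPM) and B cells (109 CPM) followed, and SMCs (32.9 CPM), FBs (29.3 CPM), mesothelial cells (19.2 CPM) and airway epithelial cells (6.58 CPM) were lowest. Within a library the difference of FBs from perivascular MΦs was -2.51 ± 0.82 (SD, n = 5) on the log2 scale (10 CPM added to each value), and FBs lay below ECs in 6 of 6 libraries. The order of myeloid cells and perivascular MΦs, and of ECs, T or NK cells and B cells, was within the spread between libraries. Lymphatic ECs, outside this order, held 117 and 241 CPM in their 2 old libraries, above the ECs of the same libraries. Free RNA held Tgfb1 at 39.5 to 166 CPM. The medians of myeloid cells and perivascular MΦs lay above this range. Those of the other types in the order did not, but the totals differ as given above, so they are not placed against it.

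Tgfb2 was higher in FBs than in ECs or immune cells. Its median was 119 CPM in FBs, 81.1 CPM in SMCs and 74.6 CPM in mesothelial cells, the lining of the pleura, and these 3 did not differ beyond their spread. FBs exceeded ECs (17.3 CPM) in 6 of 6 libraries, by 1.86 ± 0.89 (SD, n = 6) on the log2 scale, and perivascular MΦs (4.61 CPM) in 5 of 5, by 2.95 ± 0.63 (SD). B cells, myeloid cells and T or NK cells held 1.92 CPM or less at the median. Tgfb3 had a similar distribution, with 66.2 CPM in SMCs, 66.0 CPM in mesothelial cells and 45.0 CPM in FBs against 9.51 CPM in ECs. T or NK cells held no Tgfb3 UMI among 893203, which allows a level of up to 3.36 CPM. Inhba, whose product pairs to form activin A, was highest in SMCs (80.1 CPM), where it exceeded ECs in 5 of 6 libraries but by 1.15 ± 1.64 (SD, n = 6), within the spread. Perivascular MΦs, myeloid cells and B cells had a median of 0 CPM. Without the 24-month library the SMC medians of Tgfb2, Tgfb3 and Inhba were 118, 60.9 and 53.1 CPM. Free RNA held 18.7 to 104 CPM of Tgfb2, 11.3 to 72.8 CPM of Tgfb3 and 5.66 to 56.6 CPM of Inhba. The FB median of Tgfb2 lay above its range. No median of Tgfb3 did, but the totals differ, so Tgfb3 is not placed against free RNA.

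The receptors were spread more widely. Tgfbr1 was highest in SMCs (149.5 CPM), followed by FBs (103.6 CPM) and perivascular MΦs (101 CPM). SMCs exceeded ECs (62.6 CPM) in 6 of 6 libraries, by 1.44 ± 1.08 (SD, n = 6), whereas SMCs exceeded FBs in 5 of 6 libraries, by 0.49 ± 0.49, no more than the spread. The type 2 receptor Tgfbr2 was highest in FBs among types with at least 3 libraries (323 CPM), then mesothelial cells (293 CPM), ECs (220.1 CPM) and B cells (153 CPM). FBs exceeded perivascular MΦs (139 CPM) in only 3 of 5 libraries, by 0.57 ± 1.07 (SD) on the log2 scale, within the spread. SMCs held 81.5 CPM. Free RNA held 28.6 to 105 CPM of Tgfbr1, below the SMC median, and 65.3 to 127 CPM of Tgfbr2, below the first 5 types in its order. Without the 24-month library the SMC medians were 131 CPM of Tgfbr1 and 87.4 CPM of Tgfbr2. Lymphatic ECs, which had enough cells only in the 27-month and 28-month libraries, held 937 and 854 CPM of Tgfbr2, against 174 and 269 CPM in the blood vascular ECs of the same libraries. No spread can be given for the young lymphatic ECs, of which there was 1 cell.

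Tgfbr3 was high in FBs and low in immune cells. FBs held 539.7 CPM at the median, mesothelial cells 293 CPM, ECs 149 CPM, SMCs 119 CPM and airway epithelial cells 38.5 CPM, and every immune type held 8.56 CPM or less. Lymphatic ECs, outside this order, held 362 and 380 CPM in their 2 old libraries, above the mesothelial cells of the same libraries. FBs exceeded mesothelial cells in 5 of 5 libraries, by 0.88 ± 0.19 (SD), ECs in 6 of 6, by 1.96 ± 0.46, and SMCs in 6 of 6, by 2.12 ± 0.41 on the log2 scale. The difference from perivascular MΦs was 4.90 ± 0.61 (SD, n = 5). ECs and SMCs did not differ beyond their spread. Free RNA held 42.4 to 125 CPM, between the levels of immune cells and FBs.

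Smad2, a signal transducer of the pathway, had medians from 34.1 CPM in SMCs to 74.1 CPM in myeloid cells (old libraries only), over types with at least 3 libraries. All lay above its free RNA (18.5 to 32.2 CPM). Lymphatic ECs, outside this order, held 88.6 and 111 CPM in their 2 libraries, both old. Of the neighbouring types in this order only mesothelial and airway epithelial cells differed beyond their spread, by 0.29 ± 0.21 (SD, n = 5). Farther apart in the order, ECs (68.2 CPM) exceeded airway epithelial cells in 6 of 6 libraries, by 0.58 ± 0.25 (SD). Smad3, the other transducer, was highest in T or NK cells (121 CPM over 5 libraries) and lowest in SMCs. The SMC median of 3.06 CPM (6.13 CPM without the 24-month library) rests on 3 libraries with 0 UMIs at 9339 to 23059 UMIs of depth, and the 27- and 28-month SMCs held 44.1 and 32.7 CPM, inside its free RNA range of 20.8 to 62.2 CPM. The first 5 types in its order did not differ from their neighbours beyond the spread. Smad7, the inhibitor, was highest in ECs (277 CPM), above its free RNA (23.9 to 132 CPM). ECs exceeded SMCs (105 CPM) and FBs (88.0 CPM) in 6 of 6 libraries each, with a difference of 1.83 ± 1.66 (SD, n = 6) of ECs from SMCs and of -1.63 ± 1.10 of FBs from ECs. Perivascular MΦs were lowest, at 15.7 CPM. ECs were the highest type also when any 1 library was left out.

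**Figure D1:**
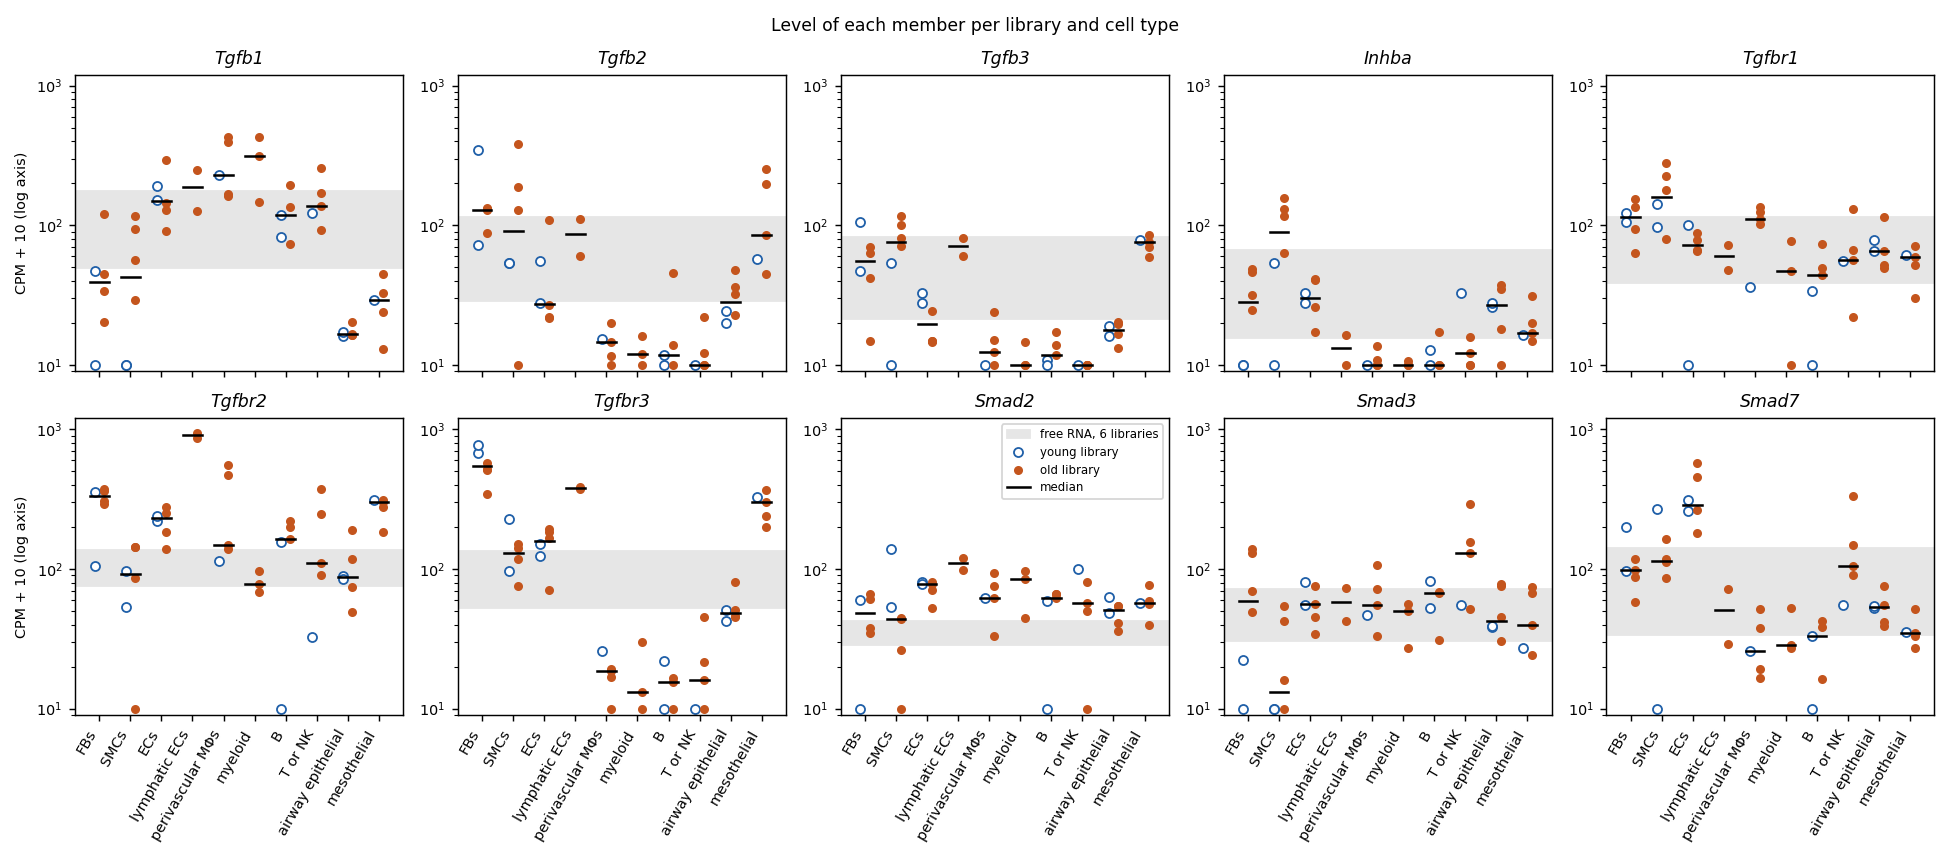
Level of each of the 10 genes (CPM plus 10, log axis) in 10 cell types, with 1 point per library of at least 10 cells, open for young and filled for old, and a bar at the median. Gray bands span the free RNA of the 6 libraries, scaled to UMIs without mitochondrial ones, so they read higher than per all UMIs. Tgfbr3 is high in FBs (median 539.7 CPM) and at most 8.56 CPM at the median in immune cells, and Smad7 is highest in ECs (277 CPM). The medians of Smad2 run from 34.1 to 74.1 CPM over types with at least 3 libraries, and lymphatic ECs lie above them (99.6 CPM).

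**Figure D2:**
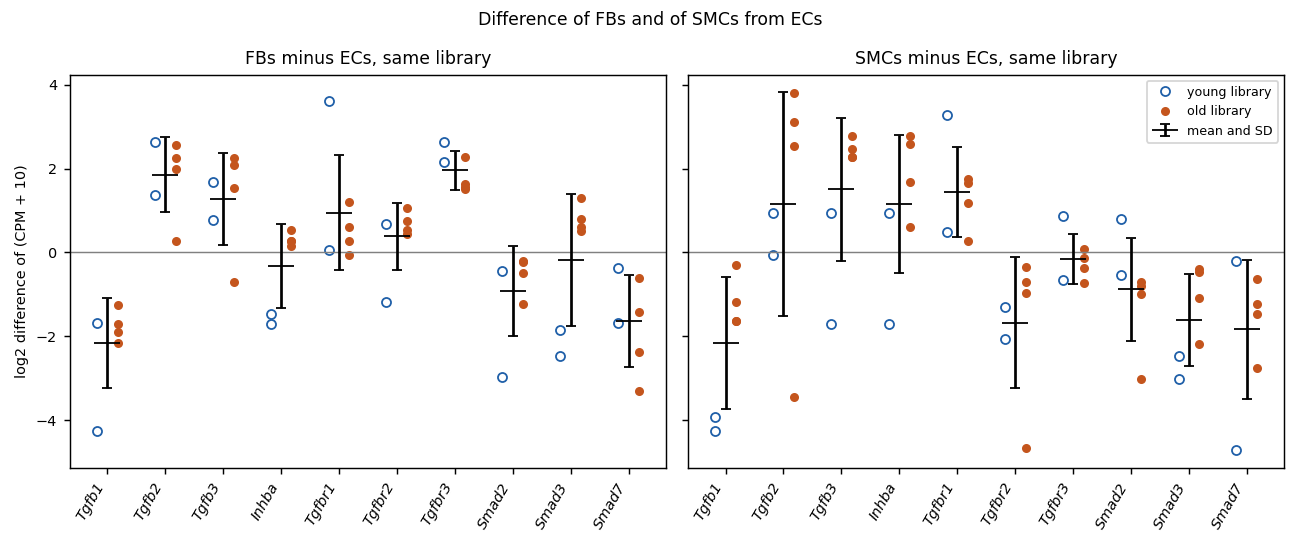
Difference of FBs (left) and SMCs (right) from ECs of the same library for each gene (log2 of CPM plus 10), with 1 point per library and the mean with its SD. Tgfb2 and Tgfbr3 lie above 0 in FBs of all 6 libraries, and Tgfb1 and Smad7 lie below 0 in both types in all 6.

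Genes that followed a member most closely over 47 profiles (library by cell type, at least 20 cells) are named by Pearson's r of log2 CPM, among 7907 genes. The profiles share libraries and depth, so no p is given. Tgfb3 was most like Tgfb2 (r = 0.84), and Tgfb2 was most like the collagen chaperone Serpinh1 and the matrix protein Sparc (both 0.88). Tgfbr3 followed the complement inhibitor Serping1 (0.93) and again Sparc (0.92), and Tgfb1 followed the endothelial and blood cell factor Fli1 (0.88). Tgfb1 ran opposite to Tgfb2 (r = -0.47) and Tgfbr3 (r = -0.45). Smad2 was most like Rasa1 (0.91), Tgfbr2 like Taok1 (0.86) and Smad3 like Ppp2r5e (0.87). The closest genes to Smad7 (Rnf19a, 0.76), Tgfbr1 (Stk38l, 0.72) and Inhba (Fam13c, 0.71) were less similar.

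Old and young libraries were then compared within each type, which asks whether the pathway shifts with age in the cells of the arterial wall. A member has a fitted value where it passed the gene filter and both young libraries together held at least 4 UMIs. With 1 to 3 young UMIs the ratio of CPM is given with its 95% counting interval, and with 0 a bound against 3 UMIs. The intervals cover counting error only. No member passed an adjusted p under 0.05 in edgeR's quasi-likelihood test in any of the 5 types fitted, nor by DESeq2. At an unadjusted p under 0.05 edgeR held 1 member in FBs (Smad3), 2 in SMCs (Tgfb1 and Tgfb2) and 0 in ECs, B cells and airway epithelial cells, and DESeq2 held 1 in FBs and 0 in SMCs, ECs, B cells and airway epithelial cells. Smad3 in FBs and Tgfb1 and Tgfb2 in SMCs passed the gene filter through old libraries only. Over all genes tested, 0.0456% passed the adjusted threshold in FBs, 0.0818% in SMCs and 0% in ECs, B cells and airway epithelial cells, and 6.73%, 5.97%, 5.92%, 6.17% and 6.12% had an unadjusted p under 0.05 in the same order. With so few young cells, differences of several fold were often not detectable at this depth. A lower level in a cell type's sum can come from fewer cells that express a gene or from less RNA per cell, and these cannot be told apart.

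In FBs Tgfbr3 had the most young UMIs of all members. The young libraries held 670.2 and 764 CPM from 54 and 16 UMIs, and the 20-, 24-, 27- and 28-month libraries held 334, 567, 506 and 513 CPM. Every old value lay below both young values, as did 7.69% of all genes tested in FBs. The fitted log2 fold change was -0.42 (SE 0.43, adjusted p = 0.901 from edgeR). It kept its sign in the 17 alternatives but came to -0.01 (SE 0.60) when the 3 shallow libraries were given a term of their own, where the comparison rests on the 24-month library (567 CPM).

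The kinase receptors did not separate the ages in FBs. Tgfbr2 stood at 348 and 95.6 CPM in the young libraries, the latter from 2 UMIs, and at 284, 355, 299 and 367 CPM in the old ones. Its log2 fold change was 0.44 (SE 0.54, adjusted p = 0.922 from edgeR) and fell to -0.17 without the second young library. Tgfbr1 stood at 112 and 95.6 CPM against 52.9, 143, 126 and 84.2 CPM, with a log2 fold change of -0.02 (SE 0.60, adjusted p = 0.999 from edgeR). Young and old values of both receptors overlapped.

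FB ligands were likewise mixed. Tgfb2 was 62.1 and 334 CPM in young FBs, from 5 and 7 UMIs, and 77.9, 123, 119.7 and 119 CPM in old FBs. Both extremes were young, and the log2 fold change was -0.31 (SE 0.60, adjusted p = 0.959 from edgeR). Tgfb3 was 37.2 and 95.6 CPM in young and 52.9, 4.93, 60.2 and 32.2 CPM in old FBs, with a log2 fold change of -0.32 (SE 0.87, adjusted p = 0.983 from edgeR). Tgfb1 was 37.2 (3 UMIs) and 0 CPM in young and 111, 34.5, 24.1 and 10.4 CPM in old FBs. Its ratio of pooled CPM was 0.66 (interval 0.22 to 3.25), whereas the means over libraries were 18.6 CPM in young and 45.1 CPM in old, so no direction is read from it. Inhba had none in either young library, against 36.2, 14.8, 21.7 and 38.6 CPM in the old ones. A total of 3 UMIs in both young libraries together would give 29.6 CPM. The pooled old level of 32.3 CPM lay above that and the mean over old libraries of 27.8 CPM below it, so no fold is stated.

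Among the Smads of FBs, Smad3 held the largest ratio. It was 12.4 CPM (1 UMI) and 0 CPM in the young libraries and 38.95, 59.1, 120.1 and 129 CPM in the old ones, so every old value lay above both young values, as did 16.6% of all genes tested in FBs. Smad3 passed the gene filter through old libraries only, where it was high, so this order is not support for a shift with age. The ratio of 12.3 rests on 1 young UMI and has an interval from 2.20 to 484. With FBs gated on marker UMIs alone, in place of clusters, it was 1.73, and with each cell thinned to 500 UMIs it was 6.23. The old values were highest in the 27- and 28-month libraries, whose FBs had medians of 5706 and 6339 UMIs and lay mainly in other clusters than young, 20-month and 24-month FBs (medians of 663 to 2819 UMIs). Smad2 was 49.6 and 0 CPM against 27.8, 24.6, 50.9 and 56.4 CPM, a log2 fold change of 0.20 (SE 0.79, adjusted p = 0.997 from edgeR). It held 4 young UMIs and also passed the gene filter through old libraries only. Smad7 was 86.9 and 191 CPM against 89.0, 108, 77.1 and 48.2 CPM, a log2 fold change of -0.49 (SE 0.61, adjusted p = 0.925 from edgeR), and the ages overlapped.

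Among the types fitted, SMCs had few young UMIs, 45939 in 59 cells of both libraries, and no SMC member held more than 7. All 4 ligands had higher means over the old libraries, most of whose cells came from 27 and 28 months and other clusters than the young SMCs. Tgfb2 was 43.4 and 43.7 CPM in young SMCs (1 UMI each) and 118, 0, 370 and 177 CPM in those of 20, 24, 27 and 28 months, and its ratio of pooled CPM was 7.43 (interval 2.06 to 61.4). Tgfb3 was 43.4 and 0 CPM against 71.5, 107, 91.0 and 60.9 CPM, with a ratio of 3.87 (interval 0.69 to 153). Inhba was 43.4 and 0 CPM against 53.1, 107, 146 and 119.6 CPM, with a ratio of 6.38 (interval 1.14 to 252). Pooled ratios follow the deepest libraries: without the 24-month library they were 7.43, 3.87 and 6.38 again, and without the 27-month library 3.96, 2.84 and 5.27. Without the second young library Tgfb3 and Inhba came to 1.94 and 3.20. Tgfb1 had no young UMI and stood at 83.7, 107, 46.6 and 19.3 CPM in old SMCs, and the old total of 41.3 CPM lay under the 65.3 CPM that 3 young UMIs would give, so no fold is stated.

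Every old SMC library lay above both young ones for Tgfb1, Tgfb3 and Inhba, 3 of the 9 members tested, where 8.99% of all tested genes did so. All 3 passed the gene filter through old libraries only, where they were high, so this count is not support for a shift with age. The old value of 107 CPM of all 3 in the 24-month library is 1 UMI each, in cells with the alveolar markers given above. Smad2 went the other way. It was 130.1 and 43.7 CPM in the young libraries, from 3 and 1 UMIs, and 16.3, 0, 33.5 and 34.6 CPM in the old ones, all below both young values, as were 8.10% of all tested genes. Its log2 fold change was -1.18 (SE 0.95, adjusted p = 0.852 from edgeR), and -1.21 (SE 0.82) without the 24-month library.

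Among the SMC receptors, Tgfbr1 was 86.7 and 131 CPM in young and 69.4, 214, 271 and 168 CPM in old libraries, a log2 fold change of 0.95 (SE 1.00, adjusted p = 0.916 from edgeR) that was 0.98 (SE 0.79) without the 24-month library. The values overlapped through the 20-month library. Tgfbr2 had 3 young UMIs and a ratio of 2.03 (interval 0.69 to 9.85), again 2.03 without the 24-month library, but 3.06 without the second young library. Tgfbr3 was 86.7 and 219 CPM against 65.4, 107, 142 and 131 CPM, a log2 fold change of -0.11 (SE 0.91, adjusted p = 0.994 from edgeR), or -0.081 (SE 0.70) without the 24-month library. Smad7 was 260.2 CPM and 0 CPM in the 2 young libraries, which is wider than the whole old range of 76.4 to 155 CPM. Its log2 fold change was 0.14 (SE 0.93), 0.16 (SE 0.85) without the 24-month library and -0.14 (SE 0.99) without the 27-month library. Smad3 had no young UMI and 41.0 CPM over all old SMCs. Over all genes tested in SMCs the median log2 fold change was 0.50, with 69.5% of genes above 0, after TMM scaling, and 0.14, with 55.5% above 0, without it. Of the 9 members 7 lay above 0 with TMM and 6 without it, and their median was 1.08, or 0.95 with Tgfb1 at the bound its 0 young UMIs allow. Tgfb1, Tgfb2, Tgfb3, Inhba and Tgfbr2, all among the 7, held 0, 2, 1, 1 and 3 young UMIs. Tgfb1, Tgfb2, Tgfb3 and Inhba passed the gene filter through old libraries only, so the count of 7 and the median of 1.08 are not support for a shift. The members with at least 4 young UMIs, Tgfbr1, Tgfbr3, Smad2 and Smad7, had log2 fold changes of 0.95, -0.11, -1.18 and 0.14.

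**Figure D3:**
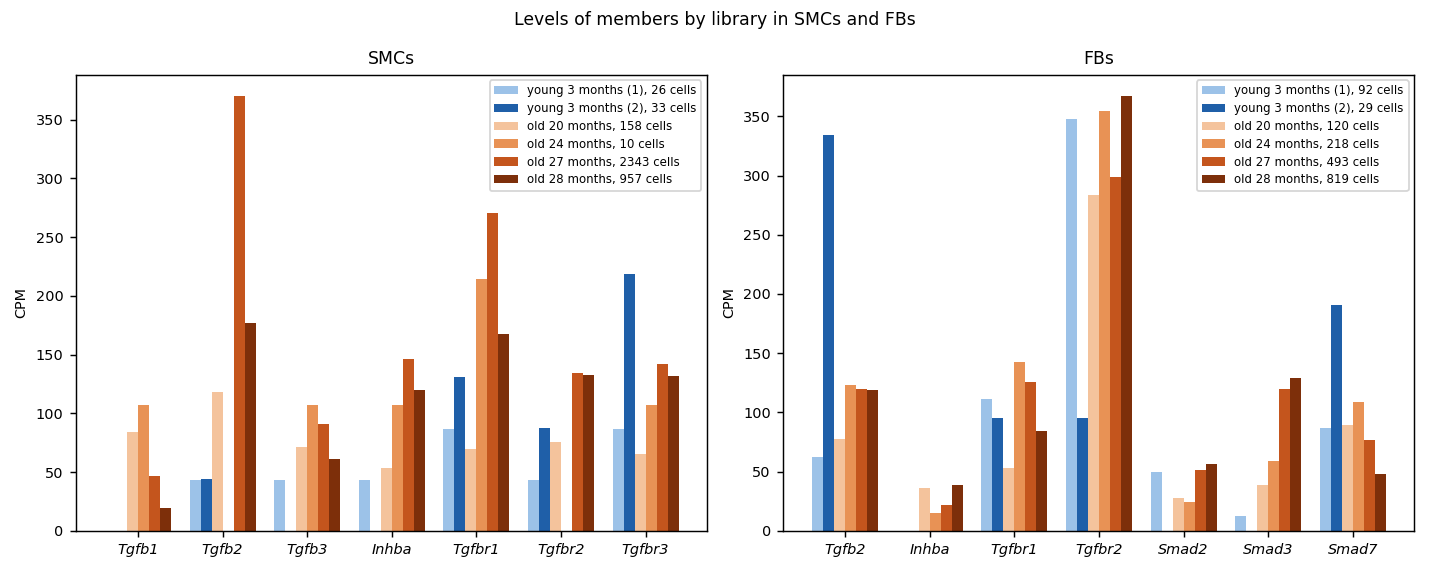
CPM of ligands and receptors in SMCs (left) and of 7 members in FBs (right), with 1 bar per library, blue for young and orange for old. Young bars in SMCs rest on at most 5 UMIs each. FBs show overlapping ages for Tgfbr1 and Tgfbr2, and higher old bars for Smad3 and Inhba, which had 1 and 0 young UMIs.

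In ECs the ages overlapped for every member tested. Smad7 was 301 and 251 CPM in young ECs (17 and 11 UMIs) and 254, 170.5, 443 and 569 CPM in ECs of 20, 24, 27 and 28 months. The highest values were those at 27 and 28 months, and the lowest was also old. ECs at 27 and 28 months lay mainly in other clusters than those of the other libraries. Its log2 fold change was 0.39 (SE 0.54, adjusted p = 0.957 from edgeR), and -0.54 with a term for the 3 shallow libraries. Tgfb1 was 141 and 182 CPM against 281, 135, 118 and 80.7 CPM, a log2 fold change of 0.04 (SE 0.63, adjusted p = 0.99997 from edgeR). Tgfbr2 was 212 and 228 CPM against 129.8, 242, 174 and 269 CPM, and Tgfbr3 was 141 and 114 CPM against 61.3, 185, 157 and 174 CPM. Their log2 fold changes were -0.09 (SE 0.48) and 0.16 (SE 0.57), and the ages overlapped for both.

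Lower EC members were no clearer. Tgfbr1 was 0 and 91.2 CPM in young ECs against 55.3, 56.8, 78.3 and 68.3 CPM, a log2 fold change of 0.70 (SE 0.82, adjusted p = 0.957 from edgeR). Smad2 was 70.7 and 68.4 CPM against 42.7, 71.0, 60.4 and 68.0 CPM, a log2 fold change of -0.21 (SE 0.57, adjusted p = 0.979 from edgeR). Tgfb2, with 3 young UMIs, was 17.7 and 45.6 CPM against 12.0, 99.5, 17.0 and 11.7 CPM. Its ratio of pooled CPM was 0.50 (interval 0.17 to 2.47), while the means over libraries were 31.6 CPM in young and 35.0 CPM in old, so no direction is read from it. Tgfb3, with 2, had a ratio of 0.25 (0.06 to 2.14) and Inhba, with 2, a ratio of 1.38 (0.37 to 11.5). Smad3 was 70.7 and 45.6 CPM against 24.0, 35.5, 65.1 and 46.4 CPM from 6 young UMIs. None of the 6 members tested in ECs had old values all above or all below the young ones, where 12.0% and 7.94% of all genes did. Over the members tested, 4 of 9 in FBs, 4 of 6 in ECs, 2 of 2 in B cells and 4 of 7 in airway epithelial cells had a fold change above 0, with medians of -0.02, 0.10, 0.38 and 0.10, beside 62.9%, 60.1%, 55.3% and 51.6% of all genes and medians of 0.25, 0.18, 0.09 and 0.02. Of the 4 in FBs, Tgfb1, Smad3 and Smad2 rested on 3, 1 and 4 young UMIs, and all of these passed the gene filter through old libraries only.

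Airway epithelial cells came from the tissue around the artery and gave at least 21 young UMIs for each member fitted. Of these cells, 137 of 256 and 216 of 417 in the young libraries and 200 of 524 at 24 months carried barcodes shared among these libraries. The libraries may thus not be independent in this type, which the SEs and p-values assume. Without the shared barcodes the fold change of Tgfbr1 changed sign, as given below. Tgfb2 rested on 21 young UMIs, at 10.1 and 14.2 CPM, against 25.9, 12.6, 38.2 and 22.1 CPM in old cells, a log2 fold change of 0.78 (SE 0.46, adjusted p = 0.782 from edgeR). The 24-month value lay between the young values and the others above them. Smad2 was 38.4 and 53.1 CPM against 25.9, 31.1, 44.8 and 44.1 CPM, a log2 fold change of -0.51 (SE 0.33, adjusted p = 0.786 from edgeR), and Smad3 was 28.3 and 29.2 CPM against 35.7, 20.7, 68.3 and 66.2 CPM, a log2 fold change of 0.49 (SE 0.42). The remaining fits, Tgfbr1, Tgfbr2, Tgfbr3 and Smad7, lay between -0.28 and 0.17.

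B cells had 2 members that could be fitted, and their libraries hardly shared a cluster. The cluster with most young B cells held 1037 of 1188 and 17 of 22 young ones, 49 of 971 at 24 months, 0 of 31 at 27 months and 1 of 230 at 28 months. Tgfb1 was 109 and 72.2 CPM in young B cells and 124, 184 and 63.7 CPM in those of 24, 27 and 28 months, a log2 fold change of 0.16 (SE 0.59, adjusted p = 0.961 from edgeR). Tgfbr2 was 145 and 0 CPM against 153, 212 and 191 CPM, a log2 fold change of 0.60 (SE 0.62, adjusted p = 0.867 from edgeR). Both second young values come from 22 cells that held 1 UMI of Tgfb1 and none of Tgfbr2.

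**Figure D4:**
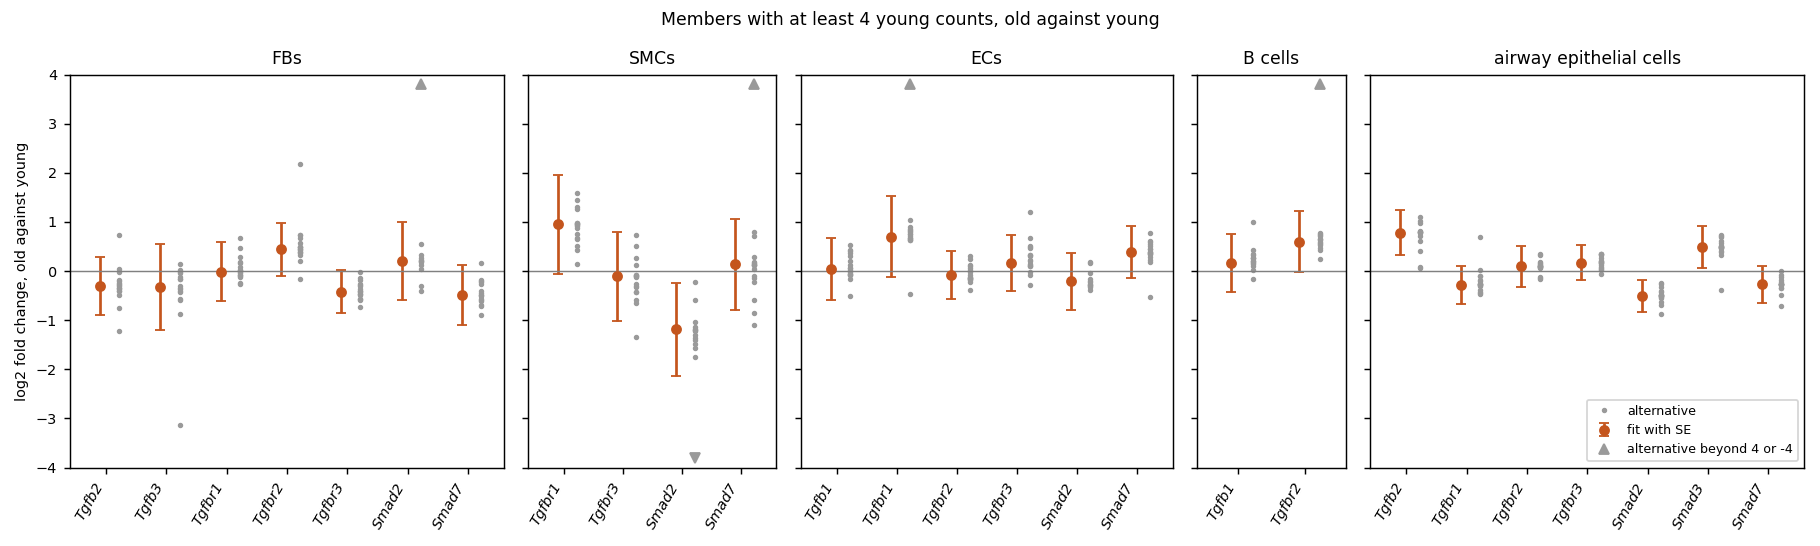
Log2 fold change of old against young for the 26 fits with at least 4 young UMIs, with its SE (orange), and the same value under each alternative (gray points, triangles for 5 values beyond 4 or -4). Most SE bars reach 0, and the alternatives of most members lie on both sides of it.

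Perivascular MΦs had only 8 cells in the second young library, so they were not fitted. In the first young library (193 cells) Tgfb1 was 219 CPM, inside the old range of 153 to 418 CPM. Tgfbr2 was 104 CPM there, 129 and 139 CPM at 20 and 24 months and 459 and 542 CPM at 27 and 28 months, so the step lay between old libraries. The perivascular MΦs of the 27- and 28-month libraries lay mainly in 1 cluster, which held 3 cells of the others, and had medians of 5973 and 5788 UMIs, against 837.5 to 2908 in the others. Tgfbr1 was 26.1 CPM in the young library, from 5 UMIs, and 92.1 to 125 CPM in all 4 old ones. Of the 193 young cells, 105 and 76 lay in clusters that held 0 cells at 20, 27 and 28 months and 5 and 4 at 24 months. Young and old perivascular MΦs thus lay mainly in different clusters, and the part of this was not tested. The clusters of the 105 and 76 young cells each had 5 of 10 perivascular MΦ markers raised. They were named only through the lower limit of 40% on reclustering, so the young levels of this type depend on that limit. The share of all genes that separated the ages was not computed for this type. When the cells were gated on marker UMIs, 35 cells of the second young library were kept, 24 of them in an unnamed cluster led by Prg4, Saa3 and Alox15 and 2 in each of 2 clusters named perivascular MΦs, against 221 of 231 and 328 of 366 cells at 27 and 28 months in a single named cluster. In these gated cells, which were thus of different clusters in young and old, Tgfbr1 was 34.8 and 57.4 CPM in young and 56.8 to 102 CPM in old MΦs, and the lowest old value lay under the higher young one. A fit of the gated cells tested 5 members and called 0 of them, or of any gene, with 1 member under an unadjusted p of 0.05 in edgeR, where 0% and 7.43% of all genes passed these thresholds. T or NK cells and mesothelial cells had 1 young library with enough cells. Tgfb2 of mesothelial cells stood at 46.9 CPM there and at 74.6, 35.1, 244 and 188 CPM in the old libraries. The higher values came from the libraries whose mesothelial cells lay in another cluster: the cluster with most young ones held 399 of 401 of them, 39 of 39 and 132 of 137 at 20 and 24 months, and 5 of 80 and 19 of 135 at 27 and 28 months. Tgfbr2 of T or NK cells stood at 22.6 CPM (1 UMI) in the young library and at 80.5, 101, 363 and 239 CPM.

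Other genes of the pathway were counted by list in each type, and none of them passed an adjusted p under 0.05 in edgeR in any type, with at most 2 genes of a list at an unadjusted p under 0.05. Of 13 latency and activation genes (latent TGF-beta binding proteins, integrins and others), 9 were tested in FBs (5 with higher fitted values in old, median log2 0.10), 11 in SMCs (9 higher, median 0.81, or 0.51 with the 2 genes of 0 young UMIs at their bound) and 9 in ECs (4 higher, median -0.41), where the medians of all tested genes were 0.25, 0.50 and 0.18. Of all genes tested in these types, 62.9%, 69.5% and 60.1% had higher fitted values in old. Of 7 other Smads and partners, 6 were tested in each, with 2, 3 and 6 higher and medians of -0.12, -0.16 and 1.23. Of 20 target gene symbols, 19 were found in the data, and 18, 17 and 13 were tested, with 12, 9 and 6 higher. Their medians were 0.20, 0.22 (-0.18 with 1 gene at its bound) and -0.12. The targets Ltbp2, Thbs1, Skil and Pmepa1 stood in other lists too. Col1a1, Col1a2 and Col3a1 were also FB markers, and Acta2 and Tagln SMC markers. Of 9 negative regulators, 7 were tested in each, with 5, 5 and 3 higher. Related receptors and co-receptors had 4 tested in each, with 3, 2 and 3 higher, and related ligands and antagonists had 3, 2 and 1 tested, with 1, 0 and 0 higher. Genes of these lists could pass the gene filter through old libraries alone, as Smad1 in ECs and Itgb8 in SMCs did. The counts of higher genes and the medians are thus not support for a shift with age. In B cells at most 4 genes of a list were tested. In airway epithelial cells all 5 latency and activation genes tested had lower fitted values in old (median -0.63, against 0.02 for all genes), and 3 of 8 target genes were higher. Of all genes tested there, 51.6% were higher.

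The pathway gene with the smallest unadjusted p in ECs was Ltbp1, a latent TGF-beta binding protein that tethers the latent ligand to matrix. It was 35.4 and 45.6 CPM in young ECs, from 4 UMIs, and 200.1, 128, 121 and 222 CPM in old ECs. Every old value lay above both young values, as did 12.0% of all genes tested in ECs. The log2 fold change of Ltbp1 was 2.13 (SE 0.66, adjusted p = 0.8288 from edgeR). Smad1, which carries BMP signals, followed at 17.7 and 22.8 CPM against 43.3, 92.4, 77.4 and 117 CPM in ECs, on 2 young UMIs, and the SMC gene Acta2 was 0 in both young EC libraries against 186, 7.10, 223 and 71.2 CPM. In FBs the 3 smallest were Tagln and Fstl3, with 0 young UMIs, and Smad6, with 1. In SMCs they were Cdkn1a, with 1 young UMI, and Smurf1 and Itgb8, with 0. All of these genes of ECs, FBs and SMCs, Ltbp1 included, passed the gene filter through old libraries only, so their higher old values are not support for a shift with age. In airway epithelial cells the integrin Itgav was 109.1 and 109.7 CPM in young and 35.7, 83.0, 62.4 and 56.7 CPM in old cells, a log2 fold change of -0.96 (SE 0.38, adjusted p = 0.772 from edgeR). The share of all genes whose ages separated was not computed in these cells, and their shared barcodes limit these fits too. Bhlhe40 and Furin, the protease that cleaves the TGF-beta precursor, had log2 fold changes of -0.87 (SE 0.37) and -0.63 (SE 0.32) there, with the same adjusted p. In B cells Nrros, Smurf2 and Bhlhe40 had values of -0.62, -0.49 and -0.79, with adjusted p of at least 0.855 in edgeR.

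Ligand and receptor were finally combined, as the product of Tgfb1 CPM in perivascular MΦs and receptor CPM in FBs or SMCs, because signals from MΦs to these cells were a question of the study. With 1 young library no test can be made, and most of its perivascular MΦs lay in the clusters named through the 40% limit. The mean old product was 1.10 times the young one for Tgfbr1 in FBs and 1.14 times for Tgfbr2 in FBs, and 2.61 and 2.78 times for the same receptors in SMCs. Without the 27-month library these 4 ratios were 0.755, 0.968, 1.505 and 1.75, so the direction in FBs turned and the size in SMCs rested on that library. Without the 24-month library the SMC ratios were 2.91 and 3.71. The integrin chain Itgb8, which activates latent TGF-beta, had no young UMI in FBs of the first young library or in SMCs, so its product has no ratio in these clustered cells. With senders and receivers both gated on marker UMIs, both young libraries entered, the second through the 35 gated MΦs described above. These 35 cells held 5 Tgfb1 UMIs, so each product of that library rests on few molecules. The exact two-sided permutation test gave p = 0.133 for Tgfbr2 in FBs, the smallest p that 2 against 4 libraries allow, with values of 12138.8 and 57594.2 in young and 62380.3 to 126102 in old libraries. Over the 6 pairs the adjusted p ran from 0.3 to 0.667, and for the 3 SMC pairs 2 against 3 libraries allow no p under 0.2.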

How the data were processed

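Proximal PAs of young and old mice were profiled in 6 libraries with 10x Genomics 3' v3.1 chemistry. Per the labels the reads were processed with cutadapt, STAR and STARsolo against GRCm38.p6 (versions not given in the sources used here), and the authors deposited raw UMI counts for every barcode, without normalization. Gene identifiers were newer than the annotation at hand, so no coordinates are given. Barcodes were kept from 500 UMIs and 300 genes upward where mitochondrial UMIs made up no more than 20%, and likely doublets were removed per library with scrublet or, where it marked under 0.5%, as the top 0.8% per 1000 barcodes. Cells were clustered in scanpy 1.11.5 (2000 variable genes without members and pathway genes, 40 components, 15 neighbours, Leiden with leidenalg 0.10.2 at resolution 1.0) and clusters named where more than 50% of a type's markers were raised (40% on reclustering).

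Counts were summed per library and type (at least 10 cells) and fitted in edgeR 4.0.16 (TMM, robust quasi-likelihood F test, Benjamini-Hochberg over all tested genes), after removing genes not detected in more than 5% of the cells of 3 or more libraries. Alternatives were DESeq2 1.42.0, other normalization and gene filters, stricter cell filters, thinning to 500 UMIs, marker gates, a term for 3 libraries that share barcodes, and leaving out each library. The marker limits for naming clusters, the gates for the products and the cluster with most young cells were chosen after the data were examined. The scripts were tested on simulated data. Young UMI depth per type limits precision. The labels number no replicates and do not link libraries, so p-values measure the spread between these libraries. Members and gene lists were chosen with earlier results of these data known. The pathway genes named are the 3 with the smallest unadjusted p per type.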

Additional observations from a re-analysis of the deposited data

Results flagged for a closer look

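Of 69 groups of 4 old libraries, 5 held a library far from the other 3, and chance gives about 1 in 20. Tgfb2 in old FBs was 77.9 CPM at 20 months, against 119 to 123 CPM in the others. Tgfb2 in old ECs was 99.5 CPM (14 UMIs) at 24 months, against 11.7 to 17.0 CPM. Tgfb3 in the same 24-month ECs was 14.2 CPM (2 UMIs), against 4.60 to 4.81 CPM. Tgfb1 in old airway epithelial cells was 10.3 CPM at 27 months, against 6.30 to 6.67 CPM, and Tgfbr3 there was 70.5 CPM, against 35.7 to 41.0 CPM.

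In 3 pairs of types the old libraries all exceeded the young ones in 1 type and all fell short of them in the other, and the difference was not tested. Tgfb3 was higher in old SMCs (mean 82.6 CPM) and lower in old ECs (7.08 CPM). It was also higher in old B cells (4.21 CPM) than in young ones, against the same ECs. Smad2 was higher in old B cells (54.7 CPM) and lower in old SMCs (21.1 CPM). The young sides of these pairs hold 1 to 4 UMIs each in SMCs and ECs and a young B cell library of 22 cells with 0 UMIs. Of all tested genes, 8.99% in SMCs had every old library above both young ones. In SMCs 8.10% and in ECs 7.94% had every old library below them. No such share was computed in B cells. Tgfb3 in ECs and B cells and Smad2 in B cells did not pass the gene filter.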

How the results depend on the processing

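No member passed an adjusted p under 0.05 under any alternative. The lowest was 0.380 by edgeR or DESeq2 over the members with at least 4 young UMIs, and members with fewer were left out of this minimum. The 26 fold changes kept their direction in 365 of 420 alternative fits, 7 of them in all. The term for the 3 libraries that share barcodes turned 11, and of 5 fitted values beyond 4 or -4, 4 rest on a young library with no UMI and 1 (Smad2 in SMCs with that term) on the 24-month library with none.

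In log2, that term, which leaves the 24-month library as the old side, gave 0.052 for Tgfb2, 0.67 for Tgfbr1, -0.40 for Smad2 and 0.16 for Smad7 in FBs, -1.10 for Smad7 in SMCs, -0.087 for Tgfb1, 0.30 for Tgfbr2, 0.19 for Smad2 and -0.54 for Smad7 in ECs, and -0.16 for Tgfbr2 and -0.38 for Smad3 in airway epithelial cells. Without gene filter it was 0.28 for Tgfbr1 in FBs, 0.50 for Tgfbr3 in SMCs, 0.25 for Tgfbr2 and 0.16 for Smad2 in ECs, and with filterByExpr 0.0094 for Tgfbr1 in FBs and 0.065 for Tgfbr2 in ECs. Without TMM it was -0.23 for Smad7 in SMCs and -0.058 for Tgfb1 in ECs, and DESeq2 gave -0.091 for Smad7 in SMCs. The marker gate gave 0.18 for Tgfbr1 in FBs, 0.27 for Tgfbr3 in SMCs, -0.066 for Tgfb1 and 0.019 for Tgfbr2 in ECs. The cluster with most young cells gave 0.15 for Tgfb3 and 0.015 for Tgfbr1 in FBs, -0.58 for Smad7 in SMCs, -0.29 for Tgfbr3 in ECs, and -0.15 for Tgfbr2 and -0.051 for Tgfbr3 in airway epithelial cells. With doublets kept Tgfbr1 in FBs was 0.019 and Tgfb1 in ECs -0.082, with at most 10% mitochondrial UMIs Tgfb1 in ECs was -0.018, and without shared barcodes Tgfbr1 in airway epithelial cells was 0.69. The causes were not tested.

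Leaving out 1 library each gave ranges that crossed 0 for Tgfb2 (-1.21 to 0.74), Tgfb3 (-0.87 to 0.021), Tgfbr1 (-0.27 to 0.47), Tgfbr2 (-0.17 to 2.17) and Smad2 (-0.31 to 9.32) in FBs, Tgfbr3 (-0.66 to 0.74) and Smad7 (-0.85 to 12.31) in SMCs, Tgfb1 (-0.52 to 0.37), Tgfbr1 (-0.47 to 9.26), Tgfbr2 (-0.22 to 0.12) and Tgfbr3 (-0.071 to 0.47) in ECs, Tgfb1 in B cells (-0.17 to 1.00), and Tgfbr1 (-0.46 to 0.015) and Tgfbr2 (-0.12 to 0.35) in airway epithelial cells. A lone remaining young library is assumed to vary like the others.

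The product ratios were 2.96 and 2.43 for Tgfbr1 and Tgfbr2 in FBs and 6.85 and 7.99 in SMCs with log counts per 10000, and 1.84 and 2.81 in FBs with the gate, and kept within their spread otherwise. The highest type of each member was the same in 78 of 90 alternatives, and its level moved by less than the spread in all 90. The number of all genes with an adjusted p under 0.05 was 3 in FBs (0 to 13 over the alternatives), 6 in SMCs (0 to 27, with 12 without TMM and 0 without the 24-month library), and 0 in ECs (7 without gene filter, 1 by DESeq2), in B cells (22 with filterByExpr, 16 without gene filter, 60 without the 24-month library, 4 with the gate) and in airway epithelial cells (174 without gene filter). The young UMIs limit precision: with 1 to 5 of them a change of several fold is not resolved. No paired analysis was possible because the labels carry no shared replicate numbers.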
